A study of Homo sapiens with 6 samples.

Results

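The step from 100 nM to 200 nM PCI-24781 after 48 h was examined in MDA-MB-231, a triple-negative breast cancer cell line of mesenchymal character. PCI-24781 is a hydroxamate inhibitor of histone deacetylases (HDACs). The 2 libraries compared were made from adherent cells exposed for 48 h to 100 nM or to 200 nM of the compound, and the 4 other libraries of the experiment (DMSO at 24 h and 48 h, and both doses at 24 h) were used only to place the values. Each condition had 1 library, so no difference has a replicate check and no test or p-value is given. Of 16623 genes, identified by NCBI Gene ID, 11694 reached an FPKM of 1 in at least 1 of the compared libraries and are called tested below. FPKM counts sequenced fragments per kilobase of transcript and per unit of library size, as the authors deposited it. The dose step of a gene is the difference of log2(FPKM + 1), 200 nM minus 100 nM, and a gene was called higher or lower where it differed at least 2-fold on that scale. The added 1 understates the difference of genes with low values.

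HDACs remove acetyl groups from the lysines of histones and other proteins. Their inhibition leaves histones more acetylated, which opens chromatin at some silent genes, while other, highly transcribed genes are repressed. In epithelial cancer cells such inhibitors are known for inducing the CDK inhibitor p21, encoded by CDKN1A, and for switching on genes of other lineages.

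The cells carried the markers of their line in the libraries of every condition. VIM, the mesenchymal intermediate filament vimentin, was at an FPKM of 2053 at 100 nM and 1629 at 200 nM after 48 h, and the estrogen and progesterone receptor genes ESR1 and PGR were at 0.04 or less in the compared libraries. The 9 luminal markers in the files, these among them, summed to 43.3 at 100 nM and 44.8 at 200 nM, of which XBP1, a stress-responsive transcription factor, gave 33.2 and 34.4. None of the 8 markers of a triple-negative mesenchymal line were at 0.1 or less throughout, and their summed FPKM was 3349 at 100 nM and 2928 at 200 nM. Endothelial and fibroblast markers, with 7 genes each, summed to between 1.58 and 9.79 in the 6 libraries. The haematopoietic markers summed to 131 at 100 nM and 74.7 at 200 nM, of which 126 and 69.6 were CD68, a lysosomal protein that tumour cells also express. The depth was inferred from the steps of low values at about 18800000 fragments for the 100 nM library and 16500000 for the 200 nM library, at which 3 fragments on a transcript of 2000 bases correspond to an FPKM of 0.082 and 0.093, and it covers counting error only.

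Genes raised at 24 h did not order by dose in the 48 h libraries. A set of 146 genes that were at least 2-fold higher than DMSO at both doses after 24 h, chosen on the 24 h libraries alone, had a median log2 difference from DMSO 24 h of 1.14 in the DMSO 48 h library, 0.50 in the 100 nM 48 h library and 1.70 in the 200 nM 48 h library. The DMSO 24 h library also served to choose the set, so the sign of these medians is partly set by the choice. Their order among the 48 h libraries is not. In 142 of these 146 genes the library labelled 100 nM was below DMSO 48 h, and in 142 the library labelled 200 nM was above it. A set of 13 genes at least 2-fold lower at both doses after 24 h, chosen in the same way, had medians of -0.78 for DMSO, -0.85 for 100 nM and -1.35 for 200 nM after 48 h. These medians follow the dose, but most single genes did not. The library labelled 100 nM was above DMSO 48 h in 10 of the 13 and below it in 2, and the library labelled 200 nM was below it in 9. In 7 of the 13, 100 nM was nearer to DMSO 24 h than DMSO 48 h was. Labels were kept as given, so 100 nM and 200 nM stand for the libraries so labelled. An exchange of the DMSO 48 h and 100 nM 48 h labels, under which each dose step at 48 h would be a difference of 200 nM from DMSO, was not tested. Without the 100 nM library, the 200 nM library could be set only against DMSO 48 h, where 24 genes were higher and 7 lower at 2-fold, of 11665. Against DMSO 48 h the 100 nM library had 7 genes higher and 47 lower, of 11514.

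Promoter sequences are shown for 5 genes that the results below turn on, namely PCDH1, furthest above at 200 nM, the abundant YAP targets CCN2, ANKRD1 and F3, and RGS2, just inside the 2-fold threshold. Each is the run of 250 bases that ends at the base before the annotated start, read 5′ to 3′ along the gene's strand from RefSeq on GRCh38.p14. Capitals mark 3 short motifs in either orientation, GGAATG or CATTCC (bound by TEAD factors), GGGCGG or CCGCCC (the GC box, bound by SP and KLF factors) and TGACTCA or TGAGTCA (bound by AP-1).
PCDH1: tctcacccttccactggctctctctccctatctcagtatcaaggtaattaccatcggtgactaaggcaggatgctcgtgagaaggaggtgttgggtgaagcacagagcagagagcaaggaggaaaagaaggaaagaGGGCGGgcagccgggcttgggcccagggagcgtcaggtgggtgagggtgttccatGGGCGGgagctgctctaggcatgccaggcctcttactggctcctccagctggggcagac
CCN2: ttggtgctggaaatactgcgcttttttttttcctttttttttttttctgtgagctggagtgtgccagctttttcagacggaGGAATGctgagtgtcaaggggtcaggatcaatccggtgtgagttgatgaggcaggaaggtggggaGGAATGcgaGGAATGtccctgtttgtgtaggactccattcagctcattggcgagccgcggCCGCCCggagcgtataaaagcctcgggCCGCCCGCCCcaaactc
ANKRD1: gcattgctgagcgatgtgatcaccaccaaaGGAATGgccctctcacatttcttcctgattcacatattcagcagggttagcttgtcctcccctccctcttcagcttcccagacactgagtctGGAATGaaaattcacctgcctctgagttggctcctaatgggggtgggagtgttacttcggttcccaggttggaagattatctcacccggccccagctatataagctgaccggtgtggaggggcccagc
F3: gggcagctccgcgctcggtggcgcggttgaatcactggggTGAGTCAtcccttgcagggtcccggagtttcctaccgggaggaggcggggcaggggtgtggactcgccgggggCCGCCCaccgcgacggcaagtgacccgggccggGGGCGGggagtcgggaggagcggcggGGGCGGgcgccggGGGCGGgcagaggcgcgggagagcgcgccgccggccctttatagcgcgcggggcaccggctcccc
RGS2: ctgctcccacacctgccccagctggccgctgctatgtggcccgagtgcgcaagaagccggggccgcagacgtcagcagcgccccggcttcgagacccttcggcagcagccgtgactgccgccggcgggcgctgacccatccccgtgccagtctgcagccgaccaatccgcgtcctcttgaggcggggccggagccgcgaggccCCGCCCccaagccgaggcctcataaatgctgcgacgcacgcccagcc
On GRCh38.p14 these lie at chr5:141869628-141869877 (PCDH1, minus strand), chr6:131951373-131951622 (CCN2, minus), chr10:90921088-90921337 (ANKRD1, minus), chr1:94541760-94542009 (F3, minus) and chr1:192808789-192809038 (RGS2, plus). CCN2 held 3 TEAD motifs, beginning 95, 104 and 169 bases before the start, and 3 GC boxes, of which those at 13 and 17 bases overlap. ANKRD1 held 2 TEAD motifs, at 128 and 220 bases. F3 held 4 GC boxes and 1 AP-1 motif, PCDH1 held 2 GC boxes and RGS2 held 1 GC box, and these windows had no TEAD motif. Such a match is a description of the letters and not a shown binding site. The TEAD motif was found in 11.9% of all 27305 promoters of the same window, in 9.18% of the 9659 with a tested gene, in 15.7% of the 153 with a gene called higher, in 15.4% of the 26 with a gene called lower and in 5 of the 16 with a tested gene of the YAP target list. The GC box was found in 42.3% of all promoters, 68.8% of those of tested genes, 57.5% of those of genes called higher and 53.8% of those of genes called lower, and the AP-1 motif in 4.16%, 2.34%, 5.23% and 7.69%, respectively.

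More genes were higher than lower at 200 nM, and those that were higher had low to moderate levels. At 2-fold, 200 genes were higher, or 1.71% of the 11694 tested, and 34 were lower, or 0.291%. At 1.5-fold the numbers were 652 (5.58%) and 277 (2.37%), and counting any difference 6080 genes (52.0%) were higher and 5594 (47.8%) lower. The median dose step over all tested genes was 0.01, and the 5th and 95th percentiles were -0.45 and 0.62. The median FPKM of the 200 higher genes was 1.48 at 100 nM and 5.63 at 200 nM, and 95 of them did not reach an FPKM of 5 in either library. Of the 200, 119 reached an FPKM of 1 at both doses, 46 had a mean of at least 10 and 11 a mean of at least 50. Just inside the threshold lay RGS2 and CDKN1A on the higher side (1.004 and 1.01) and CHD3 on the lower side (-1.004), and just outside it lay GSTM3 and TSPAN2 (both 0.99). After adjustment for the GC content of the transcript RGS2 was at 0.91 and CHD3 at -0.97, so both calls were lost.

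**Figure D1:**
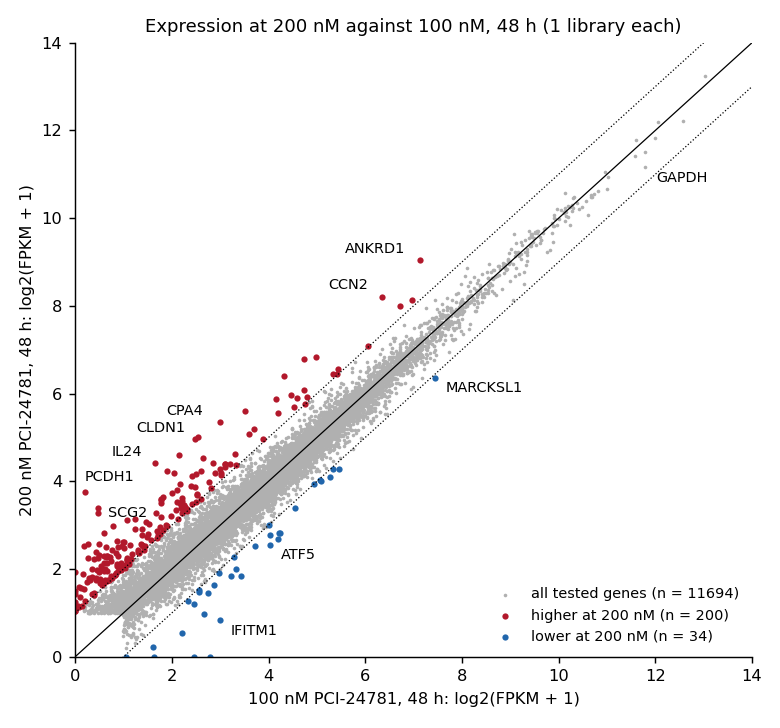
Each point is a tested gene, with log2(FPKM + 1) at 100 nM on the x axis and at 200 nM on the y axis, both after 48 h and from 1 library each. The solid line marks equal levels and the dotted lines 2-fold. The 200 higher genes (red) lie mostly at low levels, with ANKRD1 and CCN2 as abundant exceptions, and the 34 lower genes (blue) are fewer.

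The 4 genes furthest above at 200 nM encode cell-surface or secreted proteins. PCDH1, a protocadherin of cell adhesion (chr5:141232676-141257975, minus strand, in the coordinates of the files on hg19), was at an FPKM of 0.15 at 100 nM and 12.5 at 200 nM after 48 h, against 3.08 in DMSO 48 h, and at 0.08, 3.21 and 10.2 in DMSO, 100 nM and 200 nM after 24 h. Its dose step was 3.56, or 11.8-fold. The 100 nM 48 h library was thus close to DMSO 24 h for this gene and the lowest of its time. TNFSF18, a TNF-family ligand that costimulates T cells, was at 0.38 and 9.43 at the 2 doses after 48 h, at 1.01 in DMSO 48 h, and at 0.08, 0.94 and 5.70 after 24 h in the same order of treatment, with a dose step of 2.92. For SCG2, a secretogranin of neuroendocrine granules, the levels were 0.38 and 8.70 after 48 h, 2.14 in DMSO 48 h, and 0.19, 2.85 and 9.28 after 24 h, with a dose step of 2.81. IL24, a cytokine of the IL-10 family, had 2.15 and 20.5 after 48 h, 10.1 in DMSO 48 h, and 0.43, 4.74 and 10.6 after 24 h, with a dose step of 2.77. In these 4 genes the 48 h libraries ordered as 100 nM, DMSO and 200 nM, and the 24 h libraries as DMSO, 100 nM and 200 nM.

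The remaining leaders ran from 2.49 to 2.10 on the same scale. They were CRIP2, a LIM-domain protein (4.55 to 30.1 FPKM), AREG, a ligand of the EGF receptor (3.42 to 23.4), CLDN1, a claudin of tight junctions (4.81 to 31.0), the protease-activated receptor F2RL2 (2.71 to 17.9), the serpin SERPINB7, the carboxypeptidase CPA4 (7.0 to 39.6), FXYD1, a regulator of the sodium pump, TNFRSF11B, the decoy receptor osteoprotegerin (0.52 to 6.09), the keratin KRT15 (0.71 to 6.95), the immune receptor SLAMF7 and CDA, cytidine deaminase (18.9 to 83.9). CDA is the leader with the smallest 24 h step, at 67.7 FPKM at both doses after 24 h.

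**Figure D2:**
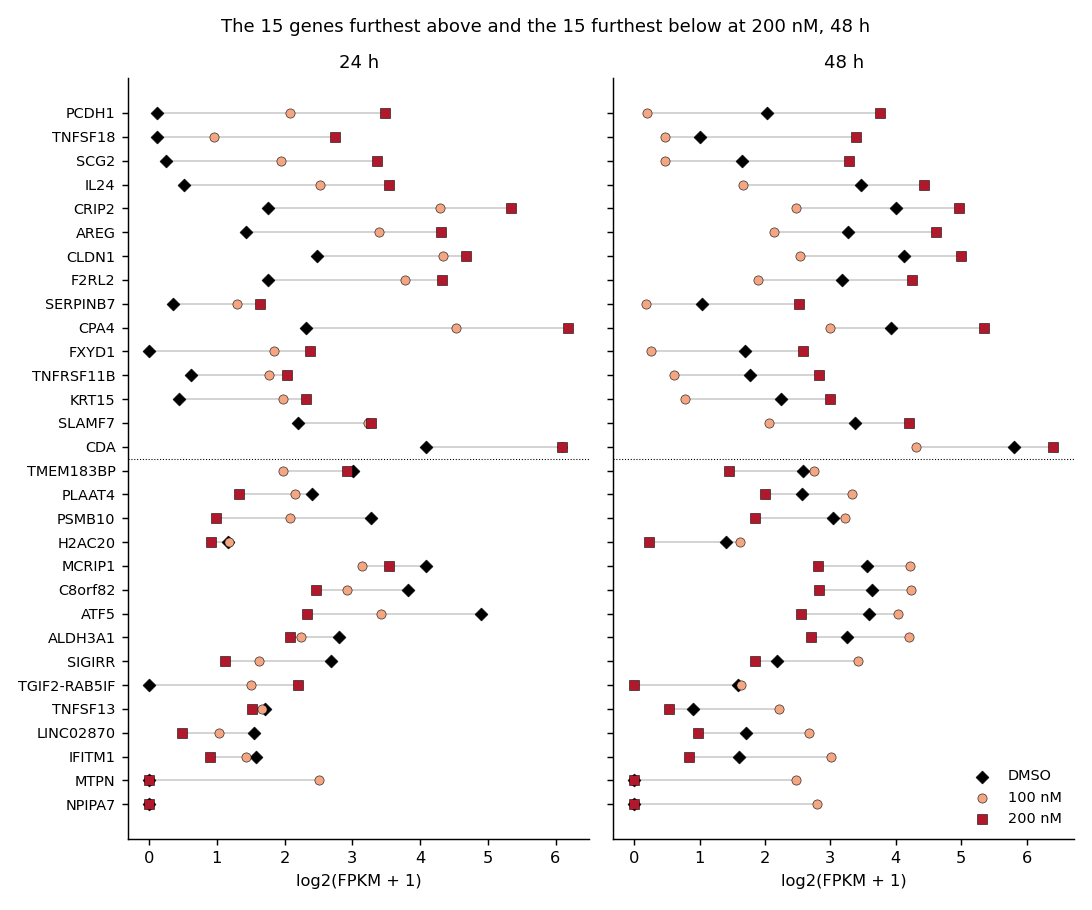
The x axis gives log2(FPKM + 1) in the libraries of 24 h (left) and 48 h (right) for the 15 genes furthest above (top) and the 15 furthest below (bottom) at 200 nM after 48 h, with 1 library per point. At 48 h the 100 nM point lies left of the DMSO point in each of the 15 upper genes, whereas at 24 h it lies to the right.

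Abundant genes were among those higher. ANKRD1, a nuclear cofactor and one of the classic YAP targets (chr10:92671857-92681032, hg19), was at 140 at 100 nM and 528 at 200 nM, against 285 in DMSO 48 h, and at 191, 482 and 816 in DMSO, 100 nM and 200 nM after 24 h, with a dose step of 1.91. CCN2, the matricellular connective tissue growth factor (chr6:132269316-132272518), was at 80.9 and 295 after 48 h, at 205 in DMSO 48 h, and at 88.8, 240 and 353 after 24 h, with a dose step of 1.85. F3, tissue factor, the initiator of coagulation, was at 104 and 255 after 48 h, at 169 in DMSO 48 h, and at 162, 250 and 353 after 24 h, with a dose step of 1.29. All 3 were lowest in the 100 nM library of 48 h among the libraries of that time. IGFBP3, which binds insulin-like growth factors, was at 25.8 and 110 after 48 h (2.05), and DKK1, a secreted Wnt antagonist, at 30.5 and 112 (1.85). The other genes with a mean of at least 50 named by rule were OGFRL1 (1.18), P3H2, a collagen prolyl hydroxylase (1.13), the cytokine IL18 (1.12) and the tropomyosin TPM1 (1.03).

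The YAP/TAZ-TEAD list, whose members respond to the Hippo pathway's coactivators, had 23 tested genes with a median dose step of 0.25, against 0.01 for all tested genes. Of the 23, 15 were higher by any amount and 8 lower, and ANKRD1, CCN2 and F3 passed 2-fold. Of all tested genes, 52.0% were higher by any amount and 1.71% at 2-fold. Below ANKRD1, CCN2 and F3 were TGFB2, a TGF-beta ligand, at 0.83, CCN1, a relative of CCN2, at 0.76 and CRIM1 at 0.71. AXL, a receptor tyrosine kinase, was at -0.10 and the ferlin MYOF at -0.42. At 24 h the list's median was 0.15.

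Genes of the matrix and of adhesion to it had more members higher than lower at 200 nM. For comparison, 52.0% of all tested genes were higher by any amount and 1.71% at 2-fold. Of 30 tested collagens, laminins and matrix proteins, 19 were higher by any amount and 11 lower, with a median of 0.16, and 6 passed 2-fold. These 6 were EFEMP1, a fibulin (5.26 to 22.1 FPKM, 1.88), CCN2, TGFBI, a matrix protein induced by TGF-beta (1.71), THBS1, thrombospondin-1 (11.1 to 32.9, 1.49), the collagen COL8A1 (1.30) and COL1A1, the type I collagen chain (1.65 to 4.72, 1.11). COL6A1 (-0.67) and FBLN1 (-0.70) lay furthest on the lower side. The 14 tested integrins had a median of 0.35, with 10 higher and 4 lower by any amount. ITGB3, the beta3 subunit, was at 2.41 at 100 nM and 10.4 at 200 nM and was the 1 integrin called (1.74). ITGB1, the abundant beta1 subunit, was at 1121 and 1533 (0.45), and ITGB4 at 34.4 and 19.7 (-0.77). Among 12 matrix metalloproteinases and inhibitors the median was 0.45, with 8 higher and 4 lower. MMP1, the interstitial collagenase, was at 5.82 and 14.9 (1.22), and MMP15, a membrane-type metalloproteinase, at 1.10 and 3.64 (1.14), while MMP14 was at 69.0 and 50.1 (-0.45). The list's median was 0.13 without the filter on low values and 0.19 over members that reached an FPKM of 5.

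Epithelial and neuronal genes gave 8 of the called genes, each from an FPKM under 5 at 100 nM. Of all tested genes, 52.0% were higher by any amount and 1.71% at 2-fold. Of 23 tested epithelial keratins and junction genes, 17 were higher and 6 lower by any amount, with a median of 0.27, which was 0.076 without the filter on low values. CLDN1 was at 4.60, 19.2 and 24.7 in DMSO, 100 nM and 200 nM after 24 h and at 16.4, 4.81 and 31.0 after 48 h. The others called were KRT15 (0.71 to 6.95, 2.22), the tight junction scaffold TJP3 (0.39 to 3.80, 1.79) and cingulin, CGN (0.59 to 3.39, 1.47). KRT15, TJP3 and CGN were tested through the 200 nM library alone. E-cadherin, CDH1, the defining epithelial adhesion gene, was at 0.28 and 0.32, too low to be tested, and EPCAM was at 3.56 and 2.35 (-0.44). Of the neuronal and neuroendocrine list 11 of 30 genes in the files were tested, with a median of 0.24, and 4 passed 2-fold, namely SCG2, the microtubule protein MAP2 (0.41 to 3.99, 1.82), the adhesion molecule L1CAM (2.17 to 8.71, 1.61) and synaptophysin, SYP (0.77 to 2.65, 1.04). SYP was at 0.65, 1.58 and 6.40 after 24 h and at 0.73 in DMSO 48 h, so DMSO and 100 nM after 48 h were both near the DMSO 24 h level. The list's median was 0.0195 without the filter on low values, and SCG2, MAP2 and SYP passed that filter through the 200 nM library alone. Protocadherins and cadherins had 10 tested members with a median of 0.37, and PCDH1 and PCDH20 (0.76 to 2.62, 1.04) passed 2-fold. Both were tested through the 200 nM library alone, and the median was 0.041 without the filter on low values and 0.12 where an FPKM of 1 was required at both doses. After the GC adjustment PCDH20 was at 0.98, short of 2-fold.

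The calcium genes were largely within 2-fold. SCIN, scinderin, a calcium-dependent actin-severing protein, was at 0.31 and 3.70 after 48 h, at 1.32 in DMSO 48 h, and at 0.17, 1.29 and 3.77 after 24 h (1.84). CALB2, the calcium buffer calretinin, was at 3.53 and 14.46 after 48 h, at 7.34 in DMSO 48 h, and at 1.12, 7.52 and 11.3 after 24 h (1.77). These were the 2 called among 14 tested EF-hand and gelsolin-family genes, whose median was -0.01, where 1.71% of all tested genes were called higher. SCIN was tested through the 200 nM library alone. RGS2, which switches off Gq-coupled signalling by accelerating its GTPase, was at 5.08 and 11.2 after 48 h, at 6.75 in DMSO 48 h, and at 4.70, 8.23 and 7.62 after 24 h, so that its dose step was 1.004 at 48 h and -0.10 at 24 h. RGS9 was at 3.86 and 9.20 (1.07). GNAQ, the Gq subunit itself, was at -0.04 and its effector PLCB3, phospholipase C beta 3, at -0.33, and the median of the 23 tested genes of this list was 0.07. The calcium channels, stores and pumps had a median of 0.07 over 24 genes and none was called. The plasma membrane pumps ATP2B1 and ATP2B4 were at 0.26 and -0.03. Calcium-dependent exocytosis had 13 of 16 tested genes higher and 3 lower by any amount, where 52.0% of all tested genes were higher. It had a median of 0.36 and no gene called. Its values were low, such as 2.97 and 6.26 for SYTL2, a synaptotagmin-like RAB27 effector (0.87), 5.02 and 9.60 for RIMS2, an active-zone scaffold (0.82), and 0.04 and 0.79 for SYT7, a calcium sensor of exocytosis (0.78), which was not tested. UNC13D, a vesicle priming factor, was at 39.1 and 20.9 (-0.87). The median was 0.15 without the filter on low values and 0.49 after rescaling to TPM.

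**Figure D3:**
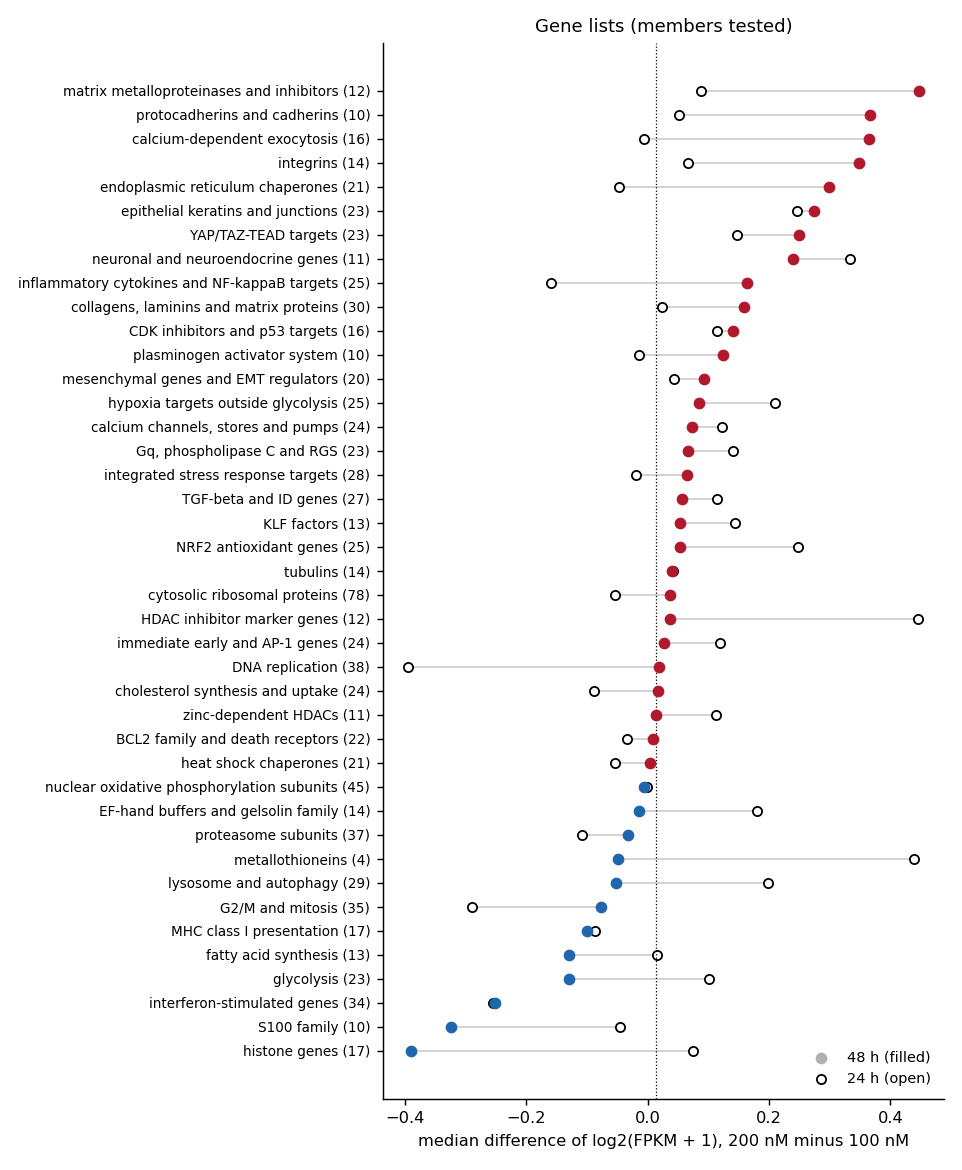
For each gene list, with its number of tested members in brackets, the x axis gives the median dose step (difference of log2(FPKM + 1), 200 nM minus 100 nM) at 48 h as a filled point and at 24 h as an open one. The dotted line is the 48 h median of all tested genes (0.01). Matrix metalloproteinases lie furthest right at 48 h (0.45) and histone genes furthest left (-0.39).

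The medians of the inflammatory and interferon lists had opposite signs. Of 25 tested inflammatory cytokines and NF-kappaB targets, 15 were higher and 10 lower by any amount, with a median of 0.16. Of all tested genes 52.0% were higher by any amount, so that count is near the share at large. The lowest member of the list was at -0.81, and none was called lower. Besides IL24, the called members were PTGS2, cyclooxygenase-2 (1.01 to 4.59, 1.48), IL1A (0.67 to 3.57, 1.45) and CXCL8, the neutrophil chemokine interleukin-8. IL1A was tested through the 200 nM library alone. CXCL8 was at 25.4 and 67.1 after 48 h, at 64.1 in DMSO 48 h, and at 11.6, 31.8 and 28.7 after 24 h (1.37), so the 200 nM library was close to DMSO of its time. Of 34 tested interferon-stimulated genes, 24 were lower and 10 higher by any amount, with a median of -0.25, where 47.8% of all tested genes were lower. IFITM1, an interferon-induced membrane protein that blocks viral entry (chr11:313991-315272, hg19), was at 7.01 at 100 nM and 0.78 at 200 nM, at 2.03 in DMSO 48 h, and at 1.98, 1.70 and 0.87 after 24 h, with a dose step of -2.17. The 100 nM 48 h library was the highest of the 6 for IFITM1. Next on the lower side, within 2-fold, were IFI35 (15.6 to 7.37, -0.99), the exonuclease ISG20 (-0.93), the ubiquitin-like ISG15 (58.9 to 30.7, -0.92) and the transcription factor IRF7 (-0.90). OAS1, an RNA-sensing synthetase (0.55 to 3.81, 1.63), and IFI6 (8.27 to 20.1, 1.18) were called higher. OAS1 was tested through the 200 nM library alone and IFITM1 through the 100 nM library alone. IFITM1 and its neighbours IFITM2 and IFITM3 are similar in sequence, so reads may be split among them.

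Endoplasmic reticulum chaperones were higher by small amounts in nearly every member. Of 21 tested, 19 were higher and 2 lower by any amount, with a median of 0.30 and none called, where 52.0% of all tested genes were higher. HSPA5, the chaperone BiP, was at 153 and 245 after 48 h, at 198 in DMSO 48 h, and at 177, 174 and 170 after 24 h (0.68). MANF was at 78.6 and 119 (0.60), SDF2L1 at 5.44 and 9.33 (0.68) and the calcium-binding CALR at 673 and 829 (0.30). At 24 h the list's median was -0.05. The median of the 21 tested genes of a separate list of heat shock chaperones was 0.0048.

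Genes known as markers of HDAC inhibition were not uniformly higher. CDKN1A, the CDK inhibitor p21, was at 25.8 and 52.9 after 48 h, at 44.3 in DMSO 48 h, and at 13.2, 30.6 and 48.8 after 24 h (1.01). CLU, clusterin, was at 34.4 and 65.4 (0.91). KLF2, a Krüppel-like transcription factor, was at 37.6 and 16.1 after 48 h, at 25.2 in DMSO 48 h, and at 30.6, 20.04 and 20.4 after 24 h (-1.18). Over the 12 tested members the median was 0.04 at 48 h and 0.45 at 24 h, with 7 higher and 5 lower at 48 h. That count is near the share at large, since 52.0% of all tested genes were higher. The 11 zinc-dependent HDAC genes had a median of 0.01 and steps from -0.44 (HDAC10) to 0.43 (HDAC9), and none was called. Only some of them encode proteins that the study names as inhibited by PCI-24781, HDAC10 among them and HDAC9 not.

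The 34 lower genes were shorter and richer in GC than the tested genes at large. Their transcripts had a median length of 1609 bases, against 2847 for all tested genes, and a median GC content of 59.9%, against 49% for all tested genes. ATF5, a stress-response transcription factor, was at 15.4 and 4.87 after 48 h, at 11 in DMSO 48 h, and at 28.8, 9.78 and 4.01 after 24 h (-1.48). PSMB10, a subunit of the immunoproteasome, was at 8.35 and 2.59 after 48 h, at 7.18 in DMSO 48 h, and at 8.72, 3.24 and 0.98 after 24 h (-1.38). For both genes the 24 h levels also went down from DMSO through 100 nM to 200 nM. SIGIRR, a negative regulator of interleukin-1 receptor signalling, was at 9.74 and 2.59 (-1.58), the ligand TNFSF13, known as APRIL, at 3.65 and 0.45 (-1.68), the aldehyde dehydrogenase ALDH3A1 at 17.4 and 5.48 (-1.502) and CA9, a hypoxia-induced carbonic anhydrase, at 4.88 and 1.79 (-1.08). Of the genes with a mean of at least 50, MARCKSL1, an actin-binding substrate of protein kinase C, was the 1 called lower, at 173 and 81.4 (-1.08). FOSL1, the AP-1 subunit FRA-1, was at 528 and 281 (-0.90), and NQO1, a quinone reductase, at 212 and 123 (-0.78), both short of 2-fold. After the GC adjustment MARCKSL1 was at -0.98 and CA9 at -0.97, so both calls were lost.

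Differences of the dose step with GC content ran through all tested genes. Over 11480 genes with a GC value, the median dose step at 48 h went from 0.16 in the lowest of 10 bins of equal size, with 31.8% to 39.1% GC, to -0.14 in the highest, with 62.2% to 75.6%. At 24 h it went the other way, from -0.09 to 0.08. Of the 32 lower genes with a GC value, 20 lay in the 2 bins of highest GC. After the dose step was centred on its trend with GC, 187 genes were higher, 178 of them shared with the 200, and 25 lower, 22 of them shared with the 34. The part of GC content in the lower genes was otherwise not tested.

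**Figure D4:**
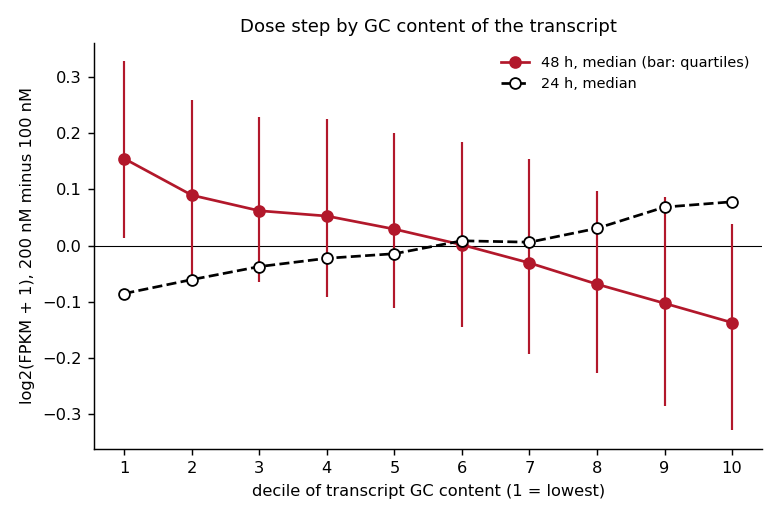
Tested genes were divided into 10 bins of equal size by the GC content of their transcripts (x axis, median over the transcripts of a gene, with 1 the lowest) and the median dose step (difference of log2(FPKM + 1), 200 nM minus 100 nM) is given on the y axis for 48 h (filled, with bars from the lower to the upper quartile) and 24 h (open). The 48 h medians go from 0.16 to -0.14 and the 24 h medians from -0.09 to 0.08.

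Ribosomal, oxidative phosphorylation, proteasome and DNA replication lists lay near the median of all genes, while the histone and S100 lists lay lower. The glycolysis list and the G2/M and mitosis list lay between, in an order that changed with the GC adjustment. The 78 cytosolic ribosomal proteins had a median of 0.04, 45 nuclear oxidative phosphorylation subunits -0.01 and 37 proteasome subunits -0.03. The 38 DNA replication genes had a median of 0.02 at 48 h and -0.39 at 24 h, and 35 genes of G2/M and mitosis -0.08 and -0.29. Of all tested genes, 47.8% were lower by any amount. Glycolysis had 7 of 23 genes higher and 16 lower by any amount with a median of -0.13. After the GC adjustment that median was -0.08, and that of the G2/M and mitosis list was -0.15. The glycolytic enzyme GAPDH was at 3531 and 2294 after 48 h (-0.62) and at 2283 and 2446 after 24 h. The 10 tested S100 genes had a median of -0.32, or -0.19 without the filter on low values, led in abundance by S100A6 at 1560 and 1072 (-0.54). The 17 tested histone genes had a median of -0.39, or -0.13 without that filter, and H2AC20, at 2.06 and 0.17, passed 2-fold (-1.39). Many histone genes are near-identical and their transcripts mostly lack poly(A) tails, so their levels are uncertain.

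The dose step at 24 h, which shares no library with that at 48 h, was smaller. At 24 h 40 genes were higher at 2-fold, or 0.343% of 11651 tested, and 21 lower, or 0.18%. Across 11486 genes tested at both times the dose steps had a Pearson correlation of 0.34 and a Spearman correlation of 0.27, which is a description over genes that share their library at each time. Of the 200 genes higher at 48 h, 176 (88.0%) were also higher by some amount at 24 h and 24 lower, where 48.8% of all tested genes were higher at 24 h. Their median dose step was 1.30 at 48 h and 0.45 at 24 h, and 20 passed 2-fold at 24 h, where 0.291% of all tested genes did. Of the 34 lower genes 26 (76.5%) were also lower at 24 h, where 50.9% of all tested genes were, with medians of -1.24 and -0.33, and 3 passed 2-fold at 24 h, where 0.171% of all tested genes did. Both steps were wide for PCDH1 (3.56 at 48 h, 1.41 at 24 h), TNFSF18 (2.92, 1.79), NANOS1, a translational repressor of germ cells (1.91, 1.81), CPA4 (2.34, 1.66), the melanosome protein PMEL (1.77, 1.501), MMP15 (1.14, 1.29), ATF5 (-1.48, -1.11) and PSMB10 (-1.38, -1.10).

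**Figure D5:**
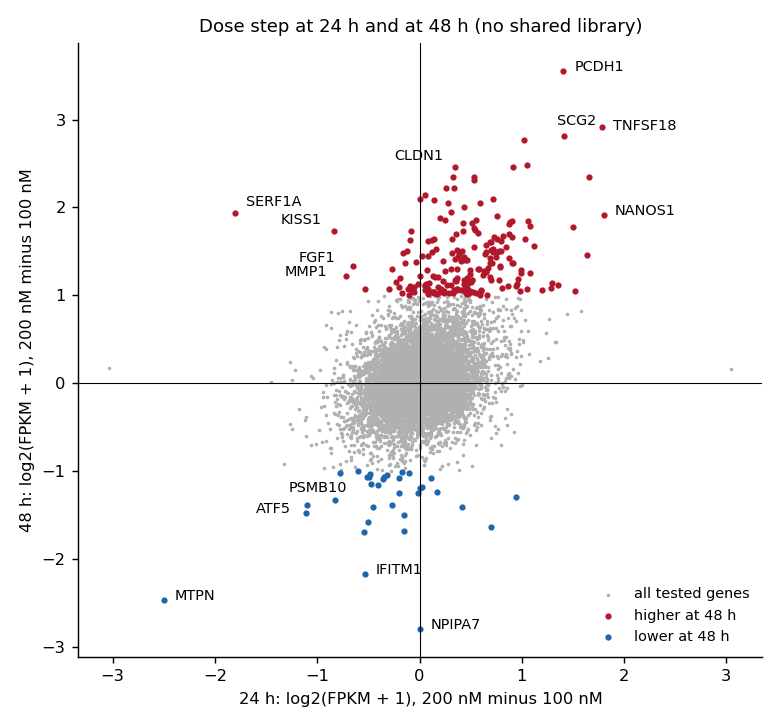
Each point is a gene tested at 48 h, with its dose step (difference of log2(FPKM + 1), 200 nM minus 100 nM) at 24 h on the x axis and at 48 h on the y axis. Of the 200 red genes, 176 lie right of 0, and of the 34 blue genes, 26 lie left of it.

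The placement of the DMSO library of 48 h divided the dose step. Both comparisons with DMSO use a library of the dose step itself, so their values are a description. For 195 of the 200 higher genes the DMSO 48 h level lay between the levels of the 2 doses, with 100 nM below DMSO in 196 and 200 nM above it in 199. Over all 11694 tested genes, DMSO 48 h lay between the doses in 6466, 100 nM was below it in 6170 and 200 nM above it in 5965. The median log2 difference from DMSO 48 h of these genes was -0.70 at 100 nM and 0.66 at 200 nM. At least 2-fold differences from DMSO were reached by 44 of them at 100 nM and by 23 at 200 nM. After 24 h, 100 nM was above DMSO in 194 of the same 200 genes and 200 nM in 194, and over all tested genes in 6098 and 5982. For the 34 lower genes, DMSO 48 h lay between the doses in 31, with medians of 0.56 at 100 nM and -0.60 at 200 nM, and after 24 h 100 nM was below DMSO in 29.

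Some called genes rest on a listed value of 0, and for some of these the counting could have split reads between copies. Of the 200 higher genes 7 were listed at 0 at 100 nM (SERF1A, KCTD4, TEX48, TMEM270, ABHD14A-ACY1, ATP5MF-PTCD1 and AZGP1), and of the 34 lower genes 4 were listed at 0 at 200 nM (NPIPA7, MTPN, TGIF2-RAB5IF and SMIM11), for which no fold is given. SERF1A and NPIPA7 have near-identical copies, and ABHD14A-ACY1, ATP5MF-PTCD1 and TGIF2-RAB5IF are readthrough transcripts that overlap their neighbours. MTPN was at 4.66 at 100 nM after 24 h and at 4.53 at 100 nM after 48 h and was listed at 0 in the 4 other libraries. Without genes listed at 0 in either library, 193 genes were higher and 30 lower.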

How the data were processed

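The 6 libraries of MDA-MB-231 cells (1 for each dose and time) were deposited by the authors as FPKM of each gene, given to 2 decimals. The processing notes of the submitters name Bowtie2, RSEM and the build hg19, with no versions, and a company made and sequenced the libraries, from RNA enriched for mRNA or depleted of rRNA. Of 16623 genes, 16585 were matched by NCBI Gene ID to a symbol of RefSeq (GRCh38.p14). Gene coordinates are those of the files, and promoters are those of RefSeq on GRCh38.p14. GC content and length came from GENCODE release 29 transcripts, for 11480 of the 11694 tested genes.

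From these values log2(FPKM + 1) at 200 nM was compared with that at 100 nM, for genes that reached an FPKM of 1 at either dose, with a threshold of 2-fold. With 1 library per dose no test was run. The members, the 41 gene lists and the 5 marker lists were chosen with earlier results of these data known. Named genes were the 15 largest per direction, the 10 largest of those whose FPKM averaged 50 or more, the 10 largest by the smaller of the 24 h and 48 h steps, up to 4 per list with all called members, genes the study measured by RT-qPCR, and those nearest the threshold. Other genes with values were picked after their values were seen, and some genes covered by the rule are not named in the text. The depth was inferred from the smallest values of single-transcript genes between 500 and 1500 bases long, and is a rough estimate. Simulated data served to check the calls. Calculations used Python 3.11.15 with pandas 2.3.3, numpy 2.4.6 and, for plots, matplotlib 3.10.9. Alternatives were 2 pseudocounts, 3 filters, 2 rescalings and a 1.5-fold threshold, and, added after the data were seen, a GC adjustment and the removal of genes listed at 0.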

Additional observations from a re-analysis of the deposited data

Results flagged for a closer look

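The dose step differed in sign between 24 h and 48 h for 6 called genes with at least a 1.5-fold difference in the other direction at 24 h. With 1 library per condition, the difference between the times was not tested. KISS1, the gene of the kisspeptin peptides, was at 16.8 at 100 nM and 58.0 at 200 nM after 48 h (1.73 on the log2 scale) and at 31.6 and 17.3 after 24 h (-0.83). FGF1, a fibroblast growth factor, had steps of 1.33 at 48 h and -0.65 at 24 h. MMP1 was at 5.82 and 14.9 after 48 h (1.22) and at 14.03 and 8.16 after 24 h (-0.71). On the same scale SERF1A, which has a near-identical copy and was listed at 0 at 100 nM after 48 h, had steps of 1.93 and -1.80, TMEM183BP, a copy of TMEM183A, -1.29 and 0.94, and the readthrough gene TGIF2-RAB5IF -1.64 and 0.70.

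The medians of 2 gene lists lay on opposite sides of 0 by at least 0.1 at both times, untested in the same way. Lists with a median nearer to 0 at either time are not counted here. Glycolysis was at -0.13 at 48 h and 0.10 at 24 h, and inflammatory cytokines and NF-kappaB targets were at 0.16 and -0.16.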

How the results depend on the processing

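No paired analysis was possible because there was 1 library for each condition, and for the same reason none could be left out. The number of higher genes, 200, was 426 with a pseudocount of 0.1, 464 with 0.01, 405 after rescaling to TPM, 119 where an FPKM of 1 was required at both doses, 105 where 5 was required at either and 652 at 1.5-fold. The number of lower genes, 34, was 89, 101, 78, 26, 25 and 277 in that order. Median-of-ratios factors gave 187 and 42, and no filter on low values 200 and 34. Each of the 200 and 34 genes remained at the smaller pseudocounts, which was fixed in advance because a smaller pseudocount can only widen a difference. All remained after rescaling to TPM too, which here acts much like a smaller pseudocount. Dropping the filter could not change the calls, because a 2-fold call with 1 added already needs an FPKM of at least 1. These settings therefore could not show that the calls hold.

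Of the list medians, that of MHC class I presentation was -0.10 and turned to 0.029 after the GC adjustment. Medians that moved by more than 0.1 without the filter on low values were histone genes -0.13, epithelial genes 0.076, matrix metalloproteinases 0.13, calcium-dependent exocytosis 0.15, cadherins 0.041, S100 genes -0.19 and neuronal genes 0.0195. Where an FPKM of 1 was required at both doses, metalloproteinases were at 0.28, exocytosis at 0.24 and cadherins at 0.12. Where 5 was required at either, metallothioneins were at 0.058, metalloproteinases at 0.19, exocytosis at 0.18 and cadherins at 0.48. After rescaling to TPM, histone genes were at -0.28, metallothioneins at 0.21, exocytosis at 0.49, cadherins at 0.57 and neuronal genes at 0.44. With pseudocounts of 0.1 and 0.01, exocytosis was at 0.47 and 0.48 and neuronal genes at 0.34 and 0.36. After the GC adjustment, metallothioneins were at 0.071, metalloproteinases at 0.34 and neuronal genes at 0.37. Of the named genes, 39 and 41 moved by more than 1.5-fold with the 2 smaller pseudocounts and 15 after rescaling to TPM, and none of the called genes changed sign under any alternative that gave it a value. The cause was not tested. Depth limits the genes of low level.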
